A study of Mus musculus with 16 samples.

Results

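The genes of fatty acid oxidation, with the ketone body enzymes, the acyl-CoA thioesterases and targets of the peroxisome proliferator-activated receptors (PPARs), were followed in small intestinal organoids that had or lacked Atg16l1 and were treated or not with IL-22. They were 39 named genes of the 49585 in the deposited table, found by symbol through their Ensembl identifiers, and 37 of them had enough counts to be tested among 12559 genes. Organoids are epithelial cultures grown from intestinal crypts in Matrigel, here in a medium with EGF, Noggin and R-spondin. RNA was sequenced from 16 cultures in 4 groups of 4: Atg16l1 fl/fl organoids untreated, Atg16l1 fl/fl organoids with IL-22 at 10 ng/ml for 24 h, and Atg16l1ΔIEC organoids untreated or with the same IL-22. Both genotypes carry the floxed Atg16l1 alleles on a C57BL/6 background, and the ΔIEC organoids also carry a Cre driven by the villin promoter, which deletes the gene in intestinal epithelial cells. The fl/fl organoids have no Cre, mice were 8 to 12 wk old, and controls were littermates. By their labels the cultures come from 2 organoid lines of each genotype, with 2 cultures for a line in each treatment, and replicates 1 and 2 of a group are the first line and replicates 3 and 4 the second. Tests between genotypes therefore rest on 2 lines against 2, and their p-values measure the spread between cultures more than that between animals.

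Fatty acids enter oxidation as acyl-CoA made by the acyl-CoA synthetases, cross the mitochondrial membranes on carnitine and are shortened in a cycle of dehydrogenation, hydration, a second dehydrogenation and thiolysis. Very long chains are first shortened in peroxisomes by a parallel set of enzymes, and the acetyl-CoA can be turned into ketone bodies. Many of these genes are targets of PPARα and PPARδ, nuclear receptors that bind fatty acids and act together with the coactivator PGC-1α (Ppargc1a), and the villus enterocyte is known for handling dietary fat with the same machinery.

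The count table holds 2135000 to 5574860 gene counts for a culture. Levels are given in CPM, the count of a gene divided by the library total and put on a common scale with edgeR's TMM factors. The targeted gene, Atg16l1, was at 31.6 to 51.8 CPM in the 8 fl/fl cultures and at 0.289 to 5.97 CPM in the 8 ΔIEC cultures, where the highest value came from 21 counts in IL-22–treated ΔIEC replicate 2. The summed level of 11 IL-22 and STAT3 target genes was 198 to 255 CPM in untreated and 30369.8 to 33520.0 CPM in treated fl/fl cultures. Of 8 adipocyte markers, 7 had at most 3 counts in any culture, among them Adipoq, Lep, Fabp4 and Cfd at 0, and Cidec had 30 to 181 counts. Further, 8 of 10 stromal markers had at most 3 counts. Enterocyte markers were well expressed, with a summed level of 6425 to 7935 CPM over 23 genes in untreated fl/fl cultures.

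Per kilobase of annotated exon, the highest levels in untreated fl/fl organoids were those of Etfa, a subunit of the electron transfer flavoprotein, at 106 ± 12.9 CPM per kb (SD, n = 4), and of Bdh1, the mitochondrial hydroxybutyrate dehydrogenase, at 106 ± 6.495. Hadh, the mitochondrial 3-hydroxyacyl-CoA dehydrogenase, followed at 93.02 ± 2.77 and Acaa2, the mitochondrial thiolase, at 83.4 ± 12.6 CPM per kb. Etfa and Bdh1 did not differ beyond their spread, nor did Hadh and Acaa2, while Bdh1 and Hadh differed by more than the SD of either. The PPAR genes were ordered Ppard (38.5 ± 3.71 CPM per kb), Pparg (17.8 ± 3.21) and Ppara (4.36 ± 0.348), with no overlap of their cultures. These orders depend on the length, which is the union of all annotated exons and can exceed that of the transcripts present. Echs1, at 187 CPM over 8286 bases, came to 22.6 CPM per kb, and Etfa, at 194 CPM over 1835 bases, to 106. Some genes of the pathway were scarcely counted. Pdk4, a PPAR target in many tissues whose kinase turns off pyruvate dehydrogenase, had 0 counts in every untreated fl/fl culture and at most 4 counts anywhere. Acot12, a cytosolic thioesterase for acetyl-CoA, had 0 to 2 counts. Neither was tested.

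Promoters were searched because many of these genes moved together with IL-22, a cytokine that acts through STAT3, and because PPARs bind a direct repeat of AGGTCA with 1 base between the repeats (DR1). RefSeq promoter windows of 300 bases (250 before and 50 after the start site, GRCm38.p6) were found for 33 of the 39 genes. A DR1 with at most 2 mismatches in its 12 fixed bases, on either strand, was in the windows of 4 of the 33 genes (12.1%: Acot12, Echs1, Etfa and Slc25a20), against 4.40% of 27025 genes. The STAT motif TTCNNNGAA was in 3 of 33 (9.09%: Cpt2, Hadha and Hadhb), against 9.55% of all genes. Hadha and Hadhb, which encode the subunits of the mitochondrial trifunctional protein, lie head to head and hold 1 and the same STAT motif between them (chr5:30155108-30155156 with its flanks). The matches of 3 DR1 genes and of Cpt2 are shown with 20 bases on each side, read along the gene, with the match in capitals. They lie at -110 to -98 from the start site in Acot12 (chr13:91741391-91741443, plus strand), -83 to -71 in Echs1 (chr7:140116472-140116524, minus strand), -77 to -65 in Etfa (chr9:55512288-55512340, minus strand) and -200 to -192 in Cpt2 (chr4:107923761-107923809, minus strand).
Acot12: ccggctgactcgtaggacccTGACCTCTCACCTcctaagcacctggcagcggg
Echs1: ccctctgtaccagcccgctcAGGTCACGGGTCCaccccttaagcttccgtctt
Etfa: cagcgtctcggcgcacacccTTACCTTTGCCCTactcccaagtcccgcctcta
Cpt2: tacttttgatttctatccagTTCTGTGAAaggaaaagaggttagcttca
The DR1 copies of Acot12 and Etfa read on the strand opposite to the gene. Of the 4 genes with a DR1 match, Acot12 was not tested, and the other 3 passed in neither IL-22 comparison of the fit described next. In other settings, such as the line as a block, Echs1 and Etfa were called lower and Slc25a20 higher. A match in these letters is no measurement of binding.

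IL-22 lowered a large part of the pathway in both genotypes and raised none of it past the threshold. In fl/fl organoids 17 of the 37 tested genes (45.9%) were lower and 0 higher in treated cultures at an adjusted p under 0.01 (edgeR's quasi-likelihood test, two-sided, Benjamini-Hochberg over all genes), where 10.2% of all tested genes were lower and 10.6% higher. In ΔIEC organoids 16 of 37 (43.2%) were lower and 0 higher, against 7.65% and 9.83% of all genes. Fold changes were below 0 for 32 of the 37 genes in each genotype, and their median was -0.37 (log2) in both, beside -0.05 and -0.01 over all tested genes. At an unadjusted p under 0.05 the numbers that differed in either direction were 28 and 25 of 37. The share of all genes at that cut is not given here, so these 2 counts cannot be set against it. The 2 genotypes share no culture, and 15 genes were lower in both, which is 88.2% of the 17 and 93.8% of the 16. This overlap was not counted over all tested genes, so whether it is particular to these genes cannot be told. Etfdh and Acat1 passed in fl/fl organoids alone and Acadm in ΔIEC organoids alone, and for none of them did the difference between genotypes pass its own test. With the organoid line as a block, 20 genes were lower and 2 higher in each genotype (all genes, 15.6% lower and 15.0% higher in fl/fl and 11.7% lower and 13.8% higher in ΔIEC). With the cultures of a line summed, 4 were lower in fl/fl and 6 in ΔIEC organoids and 0 higher in either. Without the second fl/fl line 11 were lower in fl/fl organoids, and without the first ΔIEC line 10 in ΔIEC organoids. Taken line by line, as log2 of the mean CPM with 0.5 CPM added, 27 of the 37 genes (73.0%) were lower with IL-22 in all 4 lines, against 29.2% of all tested genes. Ppard and Pparg were higher in all 4 lines, as were 26.0% of all genes. These counts stand beside other changes in the same cultures. The summed level of 23 enterocyte markers was 6425 to 7935 CPM in untreated and 4594 to 5366 CPM in treated fl/fl cultures, and 5995 to 6872 against 4397 to 5481 CPM in ΔIEC cultures. Summed stem cell markers went from 2167 to 2670 CPM down to 1271 to 1391 CPM in fl/fl and from 2859 to 3123 down to 1348 to 1717 CPM in ΔIEC cultures. Summed immune markers, of which Cd3e and Itgax had 0 counts and 6 of 10 at most 3 counts everywhere, were at 14.3 to 21.1 CPM in untreated and 39.96 to 66.2 CPM in treated fl/fl cultures, and at 12.3 to 28.2 and 19.6 to 112 CPM in ΔIEC cultures. Cd74 made up most of that rise, at 4.95 ± 0.532 and 43.3 ± 9.68 CPM (SD, n = 4) in untreated and treated fl/fl and 8.99 ± 7.69 and 52.7 ± 47.3 CPM in ΔIEC cultures, while Csf1r was at 9.55 ± 2.93 and 9.63 ± 2.07 CPM in fl/fl cultures. In bulk organoids, fewer cells of a type and less RNA per cell cannot be told apart, and the part of these shifts in the results was not tested.

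**Figure D1:**
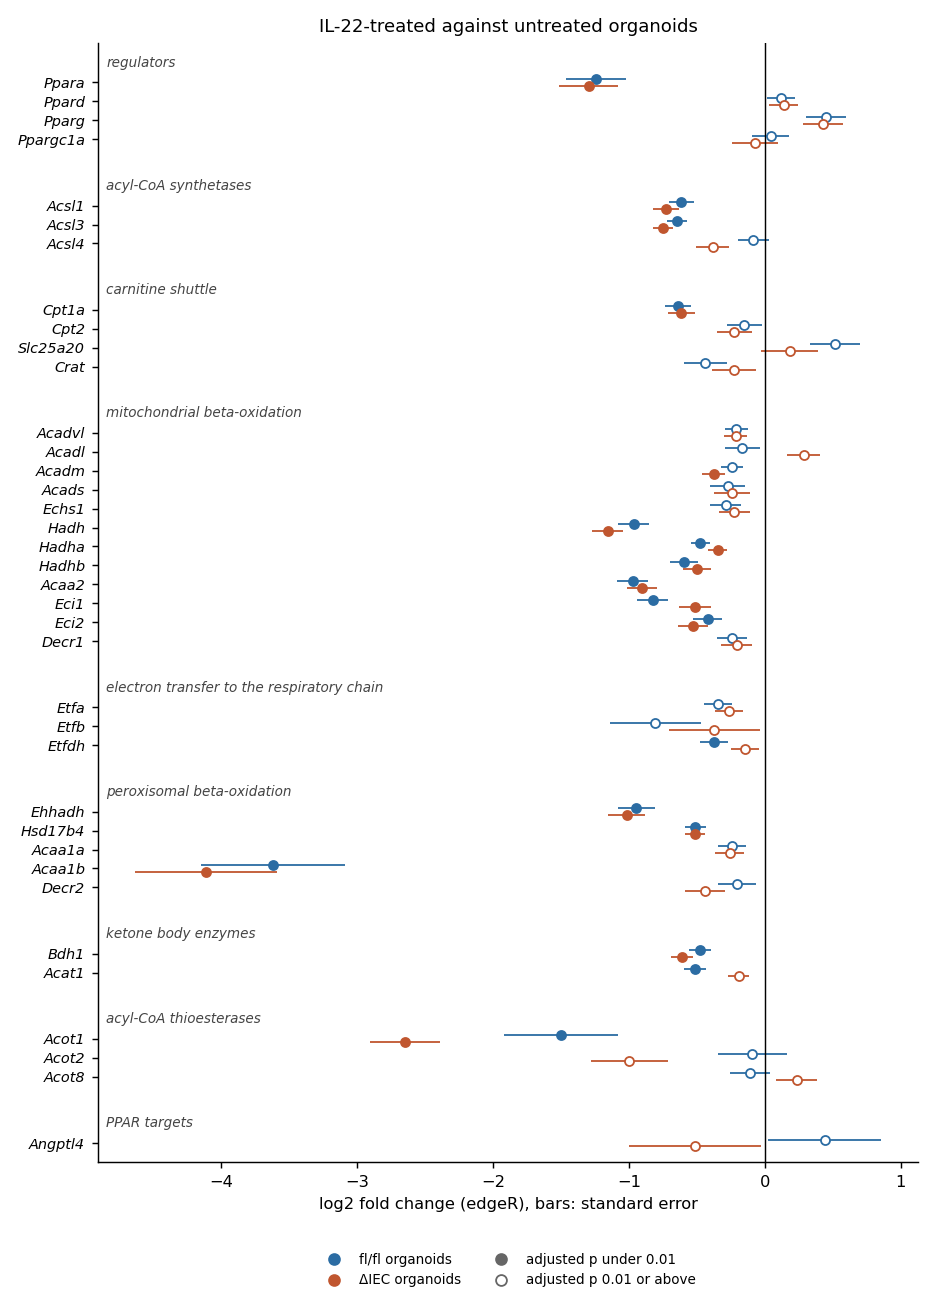
Log2 fold changes of the 37 tested genes with IL-22 (x axis, edgeR, bars give the SE), grouped by role on the y axis, in fl/fl (blue) and ΔIEC organoids (orange); filled points have an adjusted p under 0.01. All filled points lie below 0, with 17 in fl/fl and 16 in ΔIEC organoids, and Acaa1b and Acot1 lie farthest to the left.

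Of the receptors, Ppara was the member that fell. It (ENSMUSG00000022383.13, chromosome 15, 85734983 to 85802819 on GRCm38) was at 17.5, 15.8, 15.4 and 18.2 CPM in the 4 untreated fl/fl cultures and at 7.52, 9.58, 6.57 and 4.49 CPM in the treated ones. In ΔIEC organoids it was at 26.6, 22.4, 17.7 and 16.6 CPM untreated and 9.72, 10.8, 5.44 and 8.68 CPM with IL-22. In each genotype every treated culture was below every untreated one. The log2 fold change of Ppara was -1.24 in fl/fl (SE 0.22, adjusted p = 0.00024) and -1.30 in ΔIEC organoids (SE 0.21, adjusted p = 0.000121). Without the second fl/fl line, the fl/fl change of Ppara was -0.92 with an adjusted p of 0.0348. Pparg, the receptor best known from adipocytes and also expressed in gut epithelium, was at 64.6, 55.9, 46.7 and 43.6 CPM in untreated and 75.2, 80.9, 69.1 and 63.5 CPM in treated fl/fl cultures. In ΔIEC organoids it was at 47.6, 54.6, 59.5 and 56.1 CPM untreated and 61.2, 55.4, 86.1 and 87.7 CPM with IL-22. Within each of the 4 lines both treated cultures were above both untreated ones, narrowly so in the first ΔIEC line, while across lines the groups overlapped. Its log2 changes, 0.45 in fl/fl and 0.43 in ΔIEC organoids, did not pass the threshold (adjusted p = 0.0233 and 0.0354) but did with the line as a block (adjusted p = 0.000107 and 0.00141). On sums over the cultures of each line they again did not (adjusted p = 0.168 and 0.238). Ppard and the coactivator gene Ppargc1a did not pass with IL-22 in either genotype, with log2 fold changes between -0.07 and 0.14 and adjusted p from 0.378 to 0.85.

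**Figure D2:**
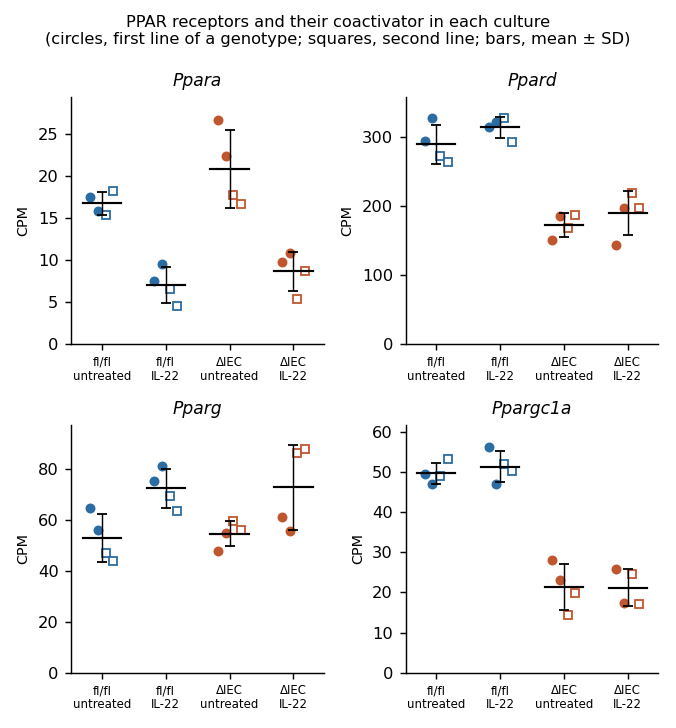
CPM (y axis) of Ppara, Ppard, Pparg and Ppargc1a in each of the 16 cultures by group (x axis), with circles for the first and squares for the second line of a genotype and bars for mean ± SD (n = 4). Ppara is lower in all treated cultures of a genotype, and Ppard and Ppargc1a are lower in all 8 ΔIEC than in all 8 fl/fl cultures.

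Single genes of activation and mitochondrial entry were lowered. Acsl3 (ENSMUSG00000032883.15, chromosome 1, 78657825 to 78707743), a long-chain acyl-CoA synthetase of the endoplasmic reticulum and lipid droplets, was at 229, 204, 229.8 and 219 CPM in untreated and 147, 141, 138 and 136 CPM in treated fl/fl cultures. In ΔIEC cultures the values were 185, 187, 195 and 189 CPM untreated and 128, 115, 104 and 103 CPM with IL-22. The treated cultures were lower without overlap in both genotypes (log2 -0.65, SE 0.07, adjusted p = 1.83e-06 in fl/fl, and log2 -0.75, SE 0.08, adjusted p = 3.20e-07 in ΔIEC). Acsl1, the main long-chain synthetase of fat-oxidizing tissues, went from 85.9, 87.5, 84.3 and 82.1 to 56.6, 57.3, 55.6 and 52.7 CPM in fl/fl and from 69.1, 74.6, 58.7 and 56.5 to 41.7, 42.3, 34.5 and 39.4 CPM in ΔIEC cultures. Its log2 fold changes were -0.61 and -0.73 (adjusted p = 3.38e-05 and 9.38e-06), again with no overlap. Acsl4, which prefers arachidonic acid, was at -0.09 (adjusted p = 0.601) in fl/fl and -0.38 (adjusted p = 0.023) in ΔIEC organoids, and passed in the latter with the line as a block (adjusted p = 0.00787). Acsl5, a synthetase gene outside the 39, stood above all of these. It was at 703 ± 66.3 and 670 ± 28.7 CPM (SD, n = 4) in untreated and treated fl/fl cultures, and at 621 ± 28.8 and 576 ± 28.3 CPM in ΔIEC cultures.

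Cpt1a (ENSMUSG00000024900.4, chromosome 19, 3322334 to 3385733) encodes the carnitine palmitoyltransferase of the outer mitochondrial membrane, the step that limits long-chain oxidation. It was at 195, 189.6, 153 and 159 CPM in untreated and 113, 129, 105 and 99.8 CPM in treated fl/fl cultures. In ΔIEC cultures it was at 179.7, 182, 191 and 175 CPM and, with IL-22, at 102, 119, 121 and 132 CPM. Each treated group lay wholly below its untreated group, with log2 changes of -0.64 in fl/fl (SE 0.10, adjusted p = 4.92e-05) and -0.62 (SE 0.10, adjusted p = 7.86e-05). Without the first ΔIEC line the latter was -0.54 with an adjusted p of 0.0158. No call was made for the later parts of the shuttle in the direction of Cpt1a. Cpt2, its partner at the inner membrane, had log2 fold changes of -0.15 and -0.22 (adjusted p = 0.405 and 0.225), and Crat, which moves acetyl groups, -0.44 and -0.23 (adjusted p = 0.042 and 0.328). Slc25a20, the carrier that exchanges acylcarnitine for carnitine, was at 49.7, 49, 23.1 and 31.03 CPM in untreated and 51.1, 68.7, 56.3 and 45.5 CPM in treated fl/fl cultures. In ΔIEC cultures Slc25a20 was at 28.3, 25.8, 23.7 and 18.7 and 27.1, 23.6, 31.7 and 28.9 CPM. The untreated fl/fl cultures split by line, and the log2 change of Slc25a20 in fl/fl organoids was 0.52 (adjusted p = 0.0353). It passed with the line as a block (adjusted p = 0.000639), with voom (0.00384), without a filter on low counts (0.000417) and without the first fl/fl line (0.00223), and did not with the cultures of a line summed (0.167). In ΔIEC organoids its change was 0.18 (adjusted p = 0.568).

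Of the 12 genes of the mitochondrial cycle, 6 fell in fl/fl and 7 in ΔIEC organoids, beside 10.2% and 7.65% of all tested genes. Acadm, in ΔIEC organoids, was the only acyl-CoA dehydrogenase among them, but most of the 12 genes encode other enzymes. The log2 changes of the uncalled dehydrogenases were also negative, except that of Acadl in ΔIEC organoids. Whether the steps of the cycle differ was not tested. Hadh (ENSMUSG00000027984.8, chromosome 3, 131233419 to 131272101) was at 469, 475, 464 and 444 CPM in untreated and 279.5, 241, 212 and 217 CPM in treated fl/fl cultures. In ΔIEC cultures it was at 386, 372, 305 and 310.3 CPM untreated and 185, 168, 139.9 and 126 CPM with IL-22. The treated cultures were all lower, and the log2 change was -0.97 in fl/fl (SE 0.11, adjusted p = 2.27e-06) and -1.16 in ΔIEC organoids (SE 0.11, adjusted p = 2.58e-07). Acaa2, which releases acetyl-CoA in the last step, was at 141, 145, 112 and 108 CPM in untreated and 64.9, 72.9, 66.5 and 53.3 CPM in treated fl/fl cultures. In ΔIEC cultures Acaa2 was at 124, 114, 138 and 115 CPM and, with IL-22, at 61.2, 72.1, 61.7 and 66.6 CPM. Treated and untreated cultures did not overlap, and the log2 changes were -0.97 in fl/fl (SE 0.11, adjusted p = 1.85e-06) and -0.91 in ΔIEC (SE 0.11, adjusted p = 4.42e-06). Both calls of Hadh and of Acaa2 held in every setting tried.

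Eci1 and Eci2, isomerases that bring double bonds of unsaturated fatty acids into place, also fell. Eci1 was at 59.02, 65.8, 52.6 and 52.2 CPM in untreated and 33.3, 35.1, 31.4 and 30.6 CPM in treated fl/fl cultures. In ΔIEC cultures Eci1 was at 56.4, 51.4, 45.4 and 46.9 CPM untreated and 31.2, 43.5, 32.6 and 33.3 CPM with IL-22. The groups did not overlap, and the log2 fold changes were -0.82 (SE 0.11, adjusted p = 1.63e-05) and -0.51 (SE 0.12, adjusted p = 0.00213). In ΔIEC organoids Eci1 lost its call when untreated replicate 1, IL-22–treated replicate 4, or either line was left out, with an adjusted p of 0.0302 without the first line and 0.0328 without the second. Eci2 fell, with a log2 change of -0.42 (adjusted p = 0.00539) and -0.53 (adjusted p = 0.00143). Without the second line of a genotype its adjusted p was 0.182 in fl/fl and 0.127 in ΔIEC organoids. In fl/fl organoids the call was also lost without untreated replicates 1, 2 or 3, IL-22–treated replicates 3 or 4, or the second ΔIEC line. Hadha and Hadhb, the subunits of the trifunctional protein, both fell, with log2 changes of -0.48 and -0.59 in fl/fl (adjusted p = 2.88e-05 and 0.000166) and of -0.35 and -0.50 in ΔIEC organoids (adjusted p = 0.000694 and 0.000983). Leaving out either ΔIEC line ended both calls there, with adjusted p from 0.0109 to 0.029, as leaving out the first fl/fl line did for Hadhb in fl/fl organoids (adjusted p = 0.0225). Of the 100-base stretches of Hadhb transcripts 14.8% also occur in the pseudogene Gm13910.

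Of the 4 acyl-CoA dehydrogenases, which open the cycle for chains of different length, Acadm alone was called, in ΔIEC organoids. Acadvl, for very long chains, had log2 fold changes of -0.21 and -0.21 (adjusted p = 0.0614 and 0.0656), with 42.9% of its exon bases covered on the other strand by Dvl2. Acads, for short chains, had -0.27 and -0.24 (adjusted p = 0.113 and 0.187). Acadm, for medium chains, fell, with a log2 change of -0.37 in ΔIEC organoids (adjusted p = 0.00231) and had -0.24 (adjusted p = 0.0294, 0.00478 with the line as a block) in fl/fl organoids. The ΔIEC call was lost without the first (adjusted p = 0.179) or the second line (adjusted p = 0.0127), and without untreated replicate 1 or 2. Acadl, for long chains, was at 75.1, 65.8, 96.1 and 77.8 CPM in untreated and 68.9, 63.1, 71.7 and 74.3 CPM in treated fl/fl cultures. In ΔIEC cultures Acadl was at 125, 114, 96.1 and 103 CPM untreated and 161, 141, 104 and 131 CPM with IL-22. Treated and untreated cultures overlapped in both genotypes, with log2 fold changes of -0.17 (adjusted p = 0.345) and 0.28 (adjusted p = 0.0923, 0.00594 with the line as a block, but 0.27 once a line's cultures were summed). Echs1, the short-chain hydratase, and Decr1, a reductase for unsaturated chains, had log2 fold changes of -0.29 to -0.21 and passed in neither genotype (adjusted p from 0.0572 to 0.184). Echs1 passed in fl/fl organoids with the line as a block (adjusted p = 0.00121).

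The electrons of the dehydrogenases go to the respiratory chain through the flavoprotein Etfa–Etfb and its dehydrogenase Etfdh. Etfdh fell in fl/fl organoids, with a log2 change of -0.37 (SE 0.10, adjusted p = 0.00885), a call so near the threshold that it was lost in 16 of 20 fits without a culture or a line and kept without untreated ΔIEC replicate 1, IL-22–treated ΔIEC replicates 1 or 3, or the first ΔIEC line. DESeq2 and RLE scaling also ended it (adjusted p = 0.0104 and 0.0123). In ΔIEC organoids the change of Etfdh was -0.15 (adjusted p = 0.313). Etfa had -0.35 and -0.26 (adjusted p = 0.0146 and 0.0631), and passed in both genotypes with the line as a block (adjusted p = 8.76e-05 and 0.00182). Etfb had only 4 to 19 counts per culture and did not pass (log2 fold changes -0.81 and -0.37). Of its exon bases 58.3% are also annotated to Gm45233 or Mir7051 on the same strand, both with 0 counts in all cultures, and its level is uncertain.

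In peroxisomes the thiolase gene Acaa1b had the widest fitted change of the 37 tested genes in both genotypes. Acaa1b (ENSMUSG00000010651.4, chromosome 9, 119148023 to 119157093) had 16, 18, 16 and 28 counts in untreated and 1, 3, 3 and 0 counts in treated fl/fl cultures. In ΔIEC cultures it had 37, 45, 20 and 15 counts untreated and 1, 5, 0 and 0 counts with IL-22. All treated fl/fl cultures were at or under the floor of 3 counts, which makes the fl/fl change at least 7.17-fold lower against 3 counts per culture (adjusted p = 3.30e-05). In ΔIEC organoids, where 1 treated culture was above the floor, the fitted log2 fold change was -4.11 (SE 0.52, adjusted p = 5.90e-06). Without the second fl/fl line the adjusted p in fl/fl organoids was 0.0107. Its near copy Acaa1a, with which Acaa1b shares 19.3% of its 100-base stretches, was counted at 69.01 ± 7.62 and 58.4 ± 2.502 CPM (SD, n = 4) in untreated and treated fl/fl organoids and did not pass (log2 fold change -0.24, adjusted p = 0.0861). Reads in the shared stretches cannot be assigned to either copy, and how counting treated them is not stated.

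The 2 bifunctional enzymes of peroxisomal oxidation fell in both genotypes. Ehhadh, a classical PPARα target, went from 86.5 ± 4.84 to 44.8 ± 3.07 CPM in fl/fl (log2 change -0.94, SE 0.13, adjusted p = 2.07e-05) and from 95.5 ± 14.1 to 47.97 ± 11.9 CPM in ΔIEC organoids (log2 change -1.02, SE 0.13, adjusted p = 8.72e-06). Hsd17b4, which also handles branched chains and bile acid precursors, fell, with a log2 change of -0.51 (adjusted p = 3.38e-05) and -0.52 (adjusted p = 2.89e-05, 0.0113 without the first ΔIEC line). Decr2, the peroxisomal dienoyl-CoA reductase, had -0.20 (adjusted p = 0.278) in fl/fl and -0.44 (adjusted p = 0.0288, 0.00549 with the line as a block) in ΔIEC organoids.

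Of the ketone body enzymes, Bdh1, which interconverts acetoacetate and hydroxybutyrate, went from 413 ± 25.3 to 297 ± 34.96 CPM in fl/fl (log2 change -0.48, SE 0.08, adjusted p = 0.000102) and from 360.2 ± 13 to 236 ± 6.7 CPM in ΔIEC organoids (log2 change -0.61, SE 0.08, adjusted p = 7.88e-06). An antisense gene, Gm15743, with 74 to 307 counts, covers 13.7% of Bdh1's exon bases, and the strand setting of the counting is not given. Acat1, the mitochondrial acetoacetyl-CoA thiolase, was at 119, 124, 129 and 127 CPM in untreated and 97, 82.7, 85.4 and 85.1 CPM in treated fl/fl cultures. In ΔIEC cultures Acat1 was at 147, 135, 139 and 134 CPM and, with IL-22, at 126, 138, 113 and 109 CPM. Only the fl/fl groups were separate, with a log2 change of -0.51 (SE 0.08, adjusted p = 7.37e-05, 0.0181 without the second fl/fl line), against -0.19 (adjusted p = 0.077) in ΔIEC organoids. The interaction of Acat1, 0.32, did not pass (adjusted p = 0.523).

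The acyl-CoA thioesterases, which split acyl-CoA into fatty acid and CoA, included the cytosolic Acot1, a gene that PPARα agonists induce in liver. Acot1 (ENSMUSG00000072949.5, chromosome 12, 84009490 to 84018371) was at 2.92, 1.53, 3.63 and 2.14 CPM in untreated and 0.792, 0.234, 1.13 and 1.199 CPM in treated fl/fl cultures, from 10, 6, 8 and 8 and 2, 1, 6 and 4 counts. In ΔIEC cultures it was at 17.4, 18.9, 16.5 and 16.2 CPM untreated and 2.83, 3.98, 2.12 and 2.03 CPM with IL-22. The treated cultures were below the untreated ones in both genotypes, and the untreated ΔIEC cultures stood above all others. The ΔIEC change was -2.65 (SE 0.26, adjusted p = 2.42e-07) and held in every setting that tested the gene. The filter of at least 10 counts in every culture left Acot1 out. The fl/fl change of -1.50 (SE 0.42, adjusted p = 0.00945) was lost in 18 of 20 fits without a culture or a line, up to an adjusted p of 0.117 without the first fl/fl line, and kept without untreated fl/fl replicate 2 or IL-22–treated ΔIEC replicate 2. It was also lost with DESeq2, RLE scaling and no filter on low counts (adjusted p = 0.0172, 0.0103 and 0.0151). Acot2, its mitochondrial neighbour on chromosome 12, shares 17.1% of its 100-base stretches with Acot1. It had log2 fold changes of -0.09 (adjusted p = 0.82) in fl/fl and -0.996 (adjusted p = 0.0118, 0.00755 with the line as a block) in ΔIEC organoids. Acot8, the peroxisomal thioesterase, had -0.11 and 0.23 (adjusted p = 0.608 and 0.275).

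The secreted lipoprotein lipase inhibitor Angptl4, a PPAR target in many tissues, differed between lines. It was at 17.5, 14.3, 4.08 and 1.87 CPM in untreated and 15.4, 18.9, 9.95 and 8.99 CPM in treated fl/fl cultures. In ΔIEC cultures it was at 6.13, 6.398, 13.7 and 9.97 CPM untreated and 5.26, 5.11, 7.55 and 6.08 CPM with IL-22. The first fl/fl line was above the second in both treatments, and the first ΔIEC line was below the second. Line by line, the log2 change with IL-22 was 0.11 and 1.52 in the fl/fl lines and -0.25 and -0.75 in the ΔIEC lines, and neither comparison passed (adjusted p = 0.455 and 0.477). Without the first fl/fl line, the fl/fl change of Angptl4 was 1.82 with an adjusted p of 0.00679. Pdk4 had 1, 0, 1 and 4 counts in treated fl/fl, 2, 1, 0 and 2 in untreated ΔIEC and 0, 0, 1 and 0 in treated ΔIEC cultures, beside 0 in all 4 untreated fl/fl cultures.

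**Figure D3:**
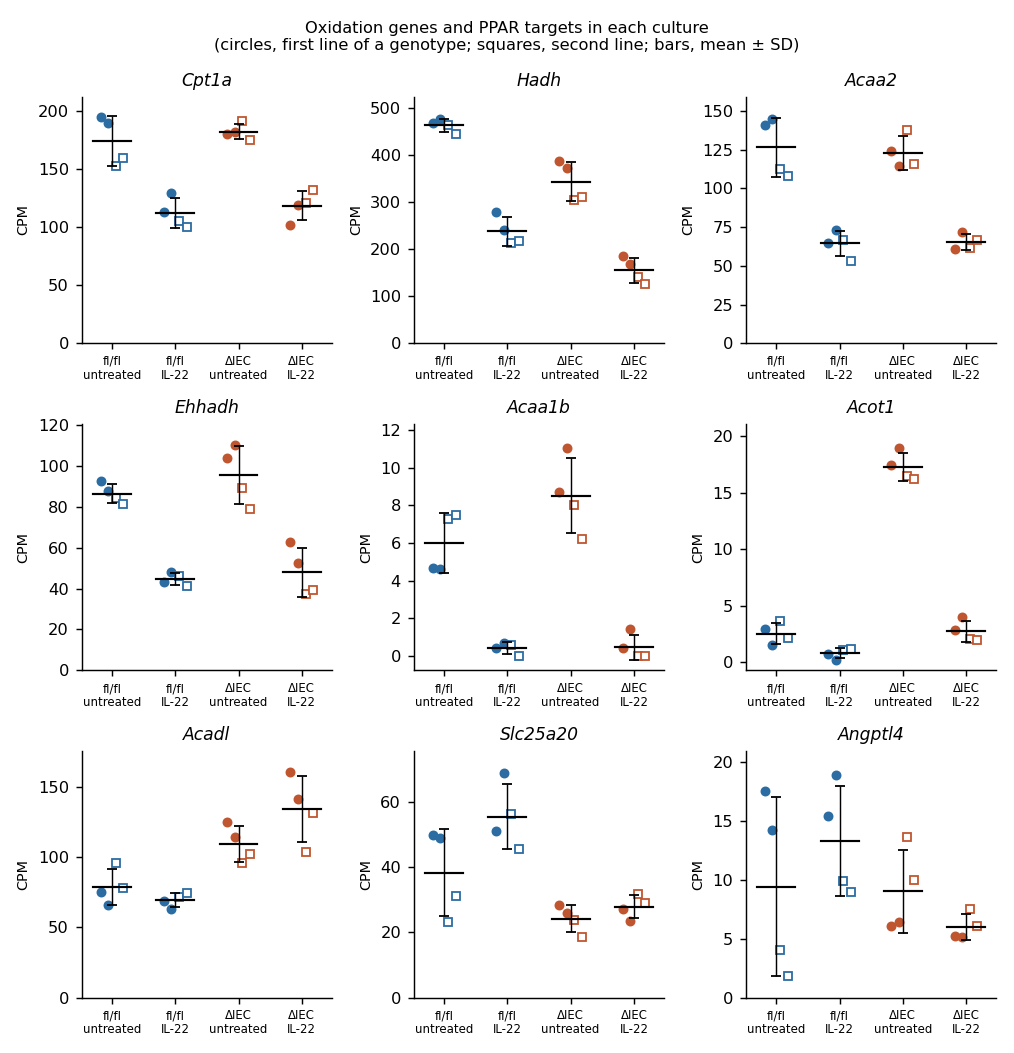
CPM (y axis) of 9 genes in each culture by group (x axis), with circles for the first and squares for the second line of a genotype and bars for mean ± SD (n = 4). Cpt1a, Hadh, Acaa2, Ehhadh and Acaa1b are lower in all IL-22–treated cultures of both genotypes, Acot1 is highest in the 4 untreated ΔIEC cultures, and Slc25a20 and Angptl4 split by line in untreated fl/fl organoids.

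Whether IL-22 acted differently on these genes in the 2 genotypes was tested as the interaction of genotype and IL-22. It passed for 0 of the 37 genes, with edgeR (lowest adjusted p = 0.523), with DESeq2 and with the line as a block. Of all genes, 0.0159% passed in edgeR's fit without the block and 0.446% with it. Without the block, 3 of the 37 genes had an unadjusted p under 0.05, beside 912 of all 12559 tested genes. The 3 genes were Acat1 (0.32 on the log2 scale, a smaller fall in ΔIEC), Acadl (0.45, adjusted p = 0.559) and Acot2 (-0.90, adjusted p = 0.598). The estimate farthest from 0, that of Acot1, was -1.15 with an SE of 0.55 (adjusted p = 0.687).

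The genotypes were next compared within each treatment. In untreated organoids 2 of 37 genes were higher and 3 lower in ΔIEC than in fl/fl cultures, or 5.41% and 8.11%, beside 3.78% and 5.98% of all tested genes. With IL-22, 3 genes were higher (8.11%) and 9 lower (24.3%), beside 9.91% and 9.84% of all genes. The median log2 fold change was -0.05 untreated and 0.02 with IL-22, beside -0.02 and 0.01 over all genes. Between genotypes these shares lay near those of all genes, except for the lower genes in IL-22–treated cultures. The treatments share no culture but come from the same 4 lines, so they are not independent, and the 5 genes called in untreated organoids were called in the same direction with IL-22. Here too the overlap was not counted over all tested genes. With the cultures of each line summed, which leaves 2 values per group, 0 genes passed in untreated organoids and 1, Ppargc1a, with IL-22. Markers of other epithelial cells moved with genotype. Of 8 Paneth cell markers, 5 were lower in untreated and 6 in treated ΔIEC organoids, and their sum was 5676 to 8096 CPM in untreated fl/fl against 3184 to 4177 CPM in untreated ΔIEC cultures, and with IL-22 7060 to 9500 against 3885 to 4620 CPM. Of 9 goblet cell markers, 4 and 5 were lower, and of 9 tested enteroendocrine markers 2 and 4, while of 10 stem cell markers 3 were higher in each treatment and 2 lower with IL-22. The part of these shifts in the genotype results was not tested.

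Ppargc1a and Ppard were lower in ΔIEC organoids in both treatments. Ppargc1a (ENSMUSG00000029167.13, chromosome 5, 51454250 to 51567726), the gene of the coactivator PGC-1α, which drives mitochondrial biogenesis and oxidation, was at 49.7, 46.96, 48.96 and 53.2 CPM in untreated fl/fl and 28.1, 23.1, 14.5 and 19.9 CPM in untreated ΔIEC cultures. With IL-22 it was at 56.2, 46.98, 52 and 50.3 CPM in fl/fl and 25.9, 17.3, 24.5 and 17.1 CPM in ΔIEC cultures. The 8 ΔIEC cultures were all below the 8 fl/fl cultures, and the log2 difference was -1.18 untreated (SE 0.15, adjusted p = 4.76e-05) and -1.29 with IL-22 (SE 0.15, adjusted p = 7.81e-06). Ppard (ENSMUSG00000002250.15, chromosome 17, 28232700 to 28301474), the most abundant PPAR gene here, was at 294, 327, 272 and 265 CPM in untreated fl/fl and 151, 186, 168 and 187 CPM in untreated ΔIEC cultures. With IL-22 it was at 314, 321, 327 and 293 CPM in fl/fl and 144, 198, 219.7 and 197 CPM in ΔIEC cultures. Again no culture overlapped, with log2 fold changes of -0.74 (SE 0.11, adjusted p = 0.000104) and -0.72 (SE 0.11, adjusted p = 5.37e-05). Ppara and Pparg did not pass between genotypes in either treatment, with log2 fold changes of 0.34 and 0.28 for Ppara (adjusted p = 0.231 and 0.395) and 0.03 and 0.01 for Pparg (adjusted p = 0.904 and 0.956).

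Acot1 and Acadl were higher in ΔIEC organoids. For Acot1, with the values given for each culture in the IL-22 comparison, the untreated ΔIEC cultures were 7.04-fold above the fl/fl cultures (log2 change 2.81, SE 0.26, adjusted p = 1.27e-06), and with IL-22 the difference was 1.67 (SE 0.41, adjusted p = 0.00427). The latter was lost without IL-22–treated fl/fl replicate 2, IL-22–treated ΔIEC replicate 2, the first fl/fl line (adjusted p = 0.0474) or the first ΔIEC line (adjusted p = 0.12), and with voom (adjusted p = 0.0183). The comparison of untreated genotypes and the IL-22 effect in ΔIEC organoids share the untreated ΔIEC cultures. Acadl (ENSMUSG00000026003.5, chromosome 1, 66830839 to 66863277) differed by 0.49 untreated (SE 0.13, adjusted p = 0.00959) and 0.95 with IL-22 (SE 0.13, adjusted p = 2.20e-05). The untreated groups of Acadl met at 96.1 CPM, the highest fl/fl and the lowest ΔIEC value, and that call was lost in 15 of 20 fits without a culture or a line, up to 0.149 without the first fl/fl line. It was kept without untreated fl/fl replicate 3, IL-22–treated ΔIEC replicates 1 or 3, and the second line of either genotype, and lost with at least 10 counts in every culture (adjusted p = 0.0104) and with voom (adjusted p = 0.0106). Acat1 was higher in ΔIEC organoids with IL-22 alone (log2 change 0.48, SE 0.08, adjusted p = 0.000217, adjusted p = 0.012 without the first ΔIEC line), where in untreated organoids the difference was 0.16 (adjusted p = 0.163).

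The other lower genes were those of activation, entry and single steps of the cycle, and the ketone body enzyme gene Bdh1. Acsl1 was lower in both treatments (-0.38, adjusted p = 0.00568, untreated and -0.49, adjusted p = 0.000694, with IL-22). The untreated call was lost in 8 of 20 fits, without untreated ΔIEC replicates 1, 3 or 4, untreated fl/fl replicates 1 or 2, the second ΔIEC line or either fl/fl line, with an adjusted p of up to 0.116, and also without a filter on low counts (0.0173) and with voom (0.0119). With IL-22, Hadh was lower in ΔIEC cultures (log2 difference -0.62, SE 0.11, adjusted p = 0.00045) and so was Slc25a20 (-1.001, SE 0.19, adjusted p = 0.00058, 0.0225 without the first ΔIEC line), in each case with no overlap of cultures. Acadm was also lower (-0.44, adjusted p = 0.000585, 0.0164 without the first ΔIEC line), as were Acsl4 (-0.54, adjusted p = 0.00181), Acsl3 (-0.32, adjusted p = 0.00291) and Bdh1 (-0.33, adjusted p = 0.00357). For Acsl4, Acsl3 and Bdh1, 3 of the 4 fits without a line ended the call, with adjusted p up to 0.0316, 0.0671 and 0.0585. Acsl3 was also lost without IL-22–treated ΔIEC replicates 3 or 4 or fl/fl replicate 1, and Bdh1 without IL-22–treated ΔIEC replicate 1 or fl/fl replicates 1 or 2, and both without a filter on low counts (adjusted p = 0.0193 and 0.0107). The lines that ended the calls were the first ΔIEC, second ΔIEC and first fl/fl line for Acsl4 and Bdh1, and the second ΔIEC and both fl/fl lines for Acsl3. In untreated organoids these 6 genes had log2 fold changes of -0.67 to -0.20, with adjusted p from 0.0101 for Hadh to 0.14 for Acsl4. The other 25 tested genes passed in neither treatment, among them Cpt1a (0.06 and 0.09) and Angptl4 (-0.18 and -1.13).

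**Figure D4:**
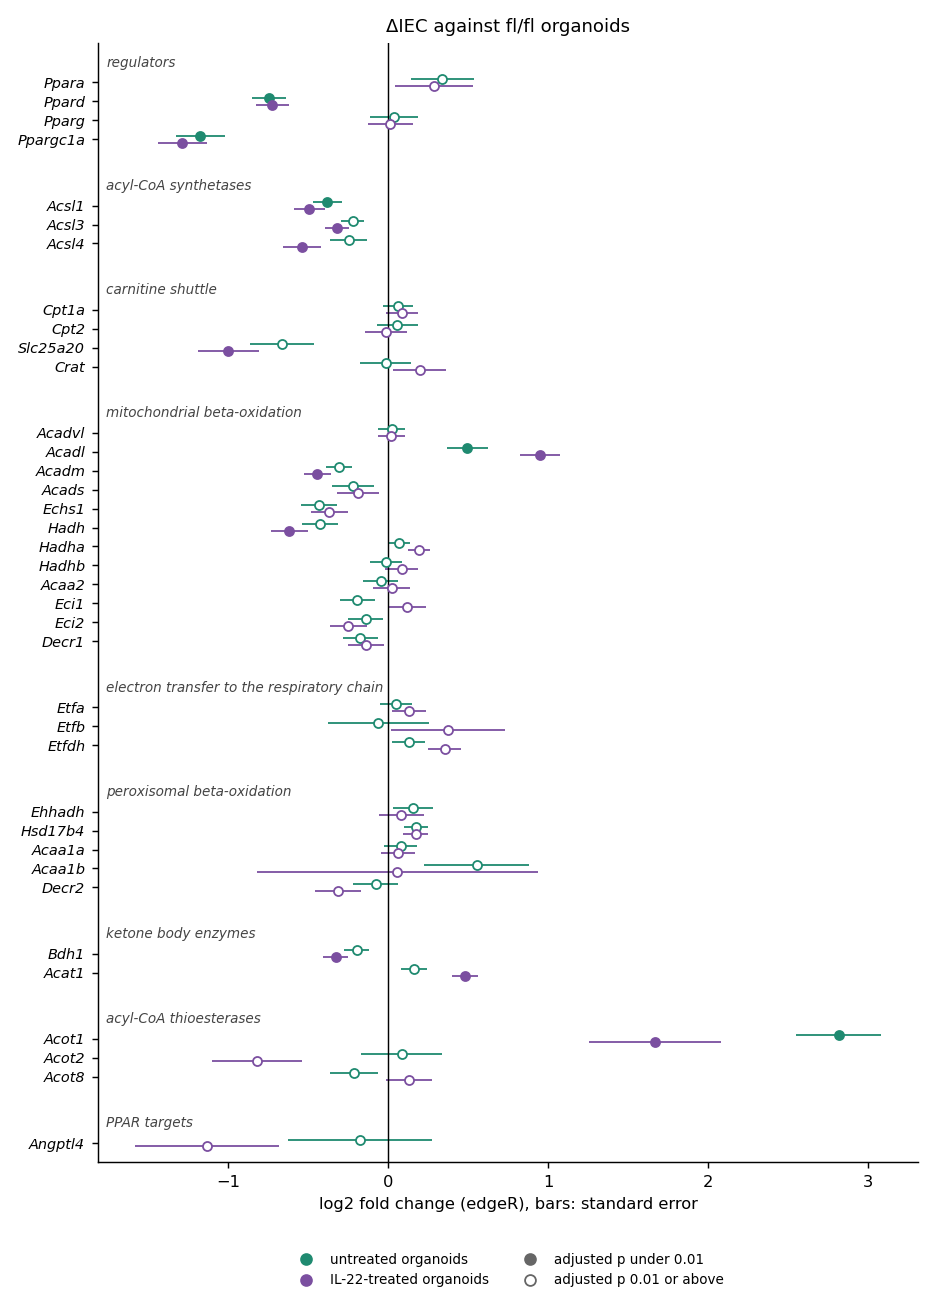
Log2 fold changes of the 37 tested genes between ΔIEC and fl/fl organoids (x axis, edgeR, bars give the SE), grouped by role on the y axis, untreated (green) and with IL-22 (purple); filled points have an adjusted p under 0.01. Acot1 lies farthest to the right, Ppargc1a and Ppard are filled on the left in both treatments, and most other points lie near 0.

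Other genes of fat handling gave the surroundings of these changes. Of 67 further genes for fatty acid transport, branched-chain and peroxisomal oxidation and PPAR signalling, 55 were tested. With IL-22, 17 were lower and 2 higher in fl/fl organoids (30.9% and 3.64%), beside 10.2% and 10.6% of all tested genes. In ΔIEC organoids 12 were lower and 2 higher (21.8% and 3.64%), beside 7.65% and 9.83% of all tested genes. The medians were -0.25 and -0.24. Slc27a2, a fatty acid transporter with acyl-CoA synthetase activity, fell, with a log2 change of -1.72 and -2.14 (adjusted p = 3.54e-06 and 7.72e-07). Fabp2, the intestinal fatty acid binding protein, fell, with a log2 change of -2.35 and -2.06 (adjusted p = 8.90e-06 and 7.73e-06), from 84.2 ± 18.3 to 16.3 ± 1.698 CPM in fl/fl organoids. Ivd, of leucine breakdown (-0.89 and -0.58, adjusted p = 1.35e-05 and 0.00074), and Acsf2, a medium-chain synthetase (-0.69 and -0.98, adjusted p = 1.46e-05 and 1.04e-06), also fell in both genotypes. The 2 higher genes in each genotype were Acot9, a mitochondrial thioesterase (0.89 and 0.77, adjusted p = 1.68e-05 and 0.000119), and the nuclear receptor coactivator Ncoa1 (0.29 and 0.43, adjusted p = 0.0065 and 0.00046). Between genotypes, 2 were higher and 5 lower in untreated and 5 higher and 7 lower in IL-22–treated ΔIEC organoids, or 3.64% and 9.09% and 9.09% and 12.7%, beside 3.78% and 5.98% and 9.91% and 9.84% of all tested genes. Acsf2 was lowest in p in both (-1.02 and -1.32, adjusted p = 1.27e-06 and 1.65e-07), with Acox3, a peroxisomal oxidase (-0.90 and -0.74), and Pdk1 (-0.51 and -0.51) beside it. Fabp2 was higher in untreated ΔIEC organoids (1.25, adjusted p = 0.00196), and Acadsb (0.83, adjusted p = 0.000232), Fabp2 (1.54) and Ivd (0.55) led the 5 higher genes with IL-22.

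The opposite pathway, fatty acid synthesis, was also lower with IL-22 in part. Of 19 tested genes of fatty acid synthesis, 10 were lower and 3 higher with IL-22 in fl/fl and 11 lower and 2 higher in ΔIEC organoids, with medians of -0.40 and -0.42. Scd1, the stearoyl-CoA desaturase, fell, with a log2 change of -1.36 and -1.80 (adjusted p = 2.34e-08 and 5.68e-10), and Fads1, a desaturase of polyunsaturated chains, with -0.72 and -0.75 (adjusted p = 1.10e-06 and 6.90e-07). The elongases Elovl7 (0.43 and 0.60, adjusted p = 0.0011 and 4.07e-05) and Elovl6 (0.42 and 0.46, adjusted p = 0.00139 and 0.000692) rose in both genotypes and Elovl1 (0.51, adjusted p = 0.00106) in fl/fl organoids. Among the 23 enterocyte markers, 11 were lower and 2 higher in fl/fl and 10 lower and 2 higher in ΔIEC organoids, with medians of -1.13 and -0.74. Lower genes thus made up 52.6% and 57.9% of the synthesis genes and 47.8% and 43.5% of the enterocyte markers in fl/fl and ΔIEC organoids. In the same order, they made up 45.9% and 43.2% of the oxidation genes and 10.2% and 7.65% of all tested genes. Higher genes made up 15.8% and 10.5% of the synthesis genes and 8.70% and 8.70% of the enterocyte markers, beside 10.6% and 9.83% of all tested genes. The fall of the oxidation genes was shared by these other lists, and no test compared the lists.

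**Figure D5:**
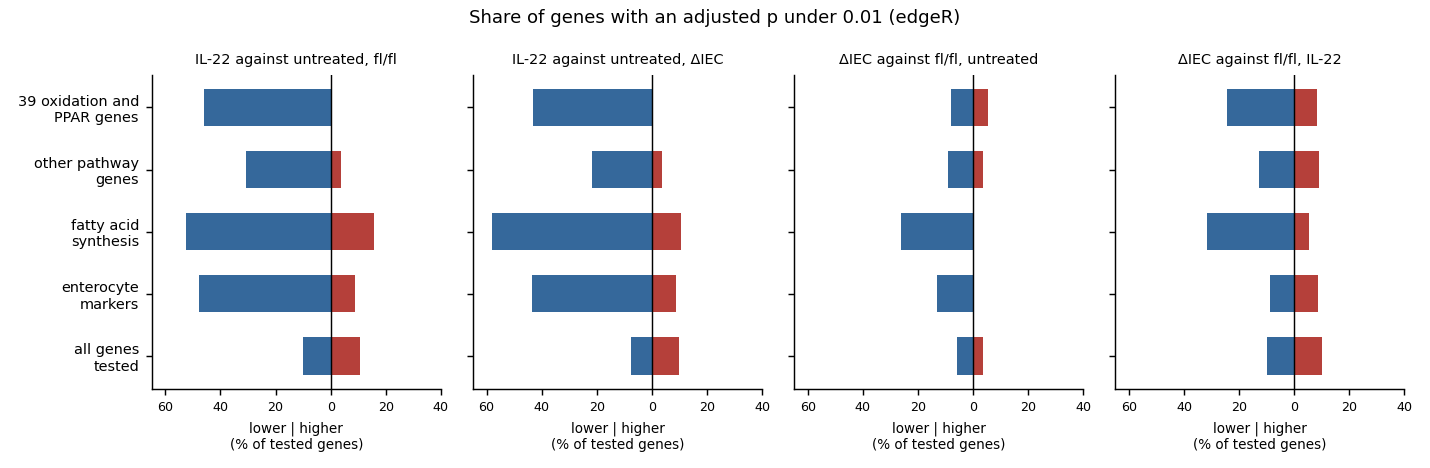
Share of tested genes with an adjusted p under 0.01 (x axis, percent, lower to the left in blue and higher to the right in red) in 5 lists (y axis) for the 4 comparisons. With IL-22, 45.9% and 43.2% of the oxidation and PPAR genes are lower and 0 higher, against 10.2% and 7.65% of all tested genes lower, and between genotypes at most 24.3% of them are lower.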

How the data were processed

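RNA from 16 organoid cultures was sequenced by the authors, who deposited 1 table of raw counts per gene, with 49585 Ensembl genes. Per the labels and the methods of the study, adapters were trimmed with cutadapt, reads were aligned with TopHat2 and counted with HTSeq, and DESeq2 was used for differential expression. Versions, and the strand setting of the counting, are not given in the sources used here. Of all reads, 36.3% to 38.3% were counted on genes, 38.0% to 40.1% had no feature and 21.5% to 24.2% were not unique, and these rows were left out. Symbols were matched without version for 49326 genes. Coordinates are on GRCm38.

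The members and lists were chosen with earlier results of these data known. Genes were filtered with filterByExpr, which kept 12559, and scaled by TMM (factors 0.932 to 1.07). They were fitted as 4 group means over all 16 cultures with edgeR 4.0.16 (R 4.3.3) and its quasi-likelihood test. A prior count of 2 was used only for the log CPM behind the correlations between cultures given below. A call is an adjusted p under 0.01 (Benjamini-Hochberg, two-sided). Values in every culture are given for the 3 PPAR genes, Ppargc1a, Cpt1a, Pdk4, Angptl4 and, per comparison and direction, up to 4 called members with the smallest p. Other called members are given by fold change. Of other pathway genes, up to 3 with the smallest p per comparison and direction are named, and of fatty acid synthesis genes 2. Some genes that this rule would name are not reported here.

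The labels tie cultures to lines, and treated and untreated cultures of a line deviated from their group means together (r over 12559 genes 0.263 to 0.438 in fl/fl and 0.0563 to 0.321 in ΔIEC for the same line, and -0.435 to -0.0779 for other lines). The line was therefore added as a block for the IL-22 comparisons and the interaction. Lines are nested in genotype, so genotype and line cannot be told apart. Cultures of a line differed by more than sampling noise (chi-square per gene 1.35 to 7.34), so each was counted as its own library. Nothing says that the cultures of a line are separate animals, so p-values measure the spread between cultures. Alternatives were DESeq2 1.42.0, RLE scaling, 2 other filters, limma 3.58.1 voom with a correlation within lines (0.261), summed cultures of a line, a threshold of 0.05, and leaving out each culture and each line.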

Additional observations from a re-analysis of the deposited data

Results flagged for a closer look

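Dixon's test for 1 value far from the other 3 of its group marked 3 of 148 groups of 4 cultures, where chance alone marks about 1 in 20. Eci1 was at 43.5 CPM in IL-22–treated ΔIEC replicate 2, with the others at 31.2 to 33.3 CPM. Acaa1a was at 62.2 CPM in IL-22–treated fl/fl replicate 2, with the others at 57.0 to 57.3 CPM. Acot2 was at 5.66 CPM in untreated ΔIEC replicate 2, with the others at 6.84 to 7.07 CPM. No gene was marked in more than 1 group.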

How the results depend on the processing

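Of 50 calls over the 4 comparisons, 11 were kept in every setting that tested the gene. A further 16 were lost in no other setting than that with the cultures of a line summed, and 27 were kept in every fit that left out a culture or a line. Acot1 and Acaa1b were not tested with at least 10 counts in every culture. No estimate of a called gene changed sign. Summing the cultures of a line, which leaves 2 values per group, gave 0 higher genes with IL-22 in both genotypes, 4 lower in fl/fl and 6 in ΔIEC organoids, and between genotypes 0 higher and 0 lower untreated and 0 higher and 1 lower with IL-22. With IL-22, 2 genes were higher in fl/fl organoids without a filter on low counts, with the replicate block, with voom and at a threshold of 0.05. In ΔIEC organoids 1 was higher without the filter, with voom and at 0.05, and 2 with the replicate block. In untreated organoids 0 genes were higher in ΔIEC with at least 10 counts in every culture and 1 with voom, and lower genes numbered 5 with DESeq2 and without the filter, 6 with at least 10 counts and 8 at 0.05. With IL-22, 5 genes were higher in ΔIEC at 0.05. With at least 10 counts, no gene was higher in untreated ΔIEC organoids because Acot1 was not tested and Acadl lost its call. The cause of the other shifts was not tested. The interaction called 0 genes in every setting.

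Leaving out a culture or a line gave 0 to 2 higher and 11 to 17 lower genes with IL-22 in fl/fl organoids, the fewest lower without the second fl/fl line. In ΔIEC organoids it gave 0 to 1 higher and 10 to 17 lower, the fewest lower without the first ΔIEC line. Between genotypes it gave 1 to 2 higher and 2 to 6 lower untreated, with 6 without untreated fl/fl replicate 3, and 1 to 4 higher and 5 to 10 lower with IL-22, with 1 higher and 5 lower without the first ΔIEC line. The organoid-line pairing changed no call of the interaction. Low counts left Acot12 and Pdk4 untested and widened the errors of Acot1, Acaa1b and Etfb. For Etfb, 58.3% of the exon bases are also annotated to other genes on the same strand. The part of this in its low counts was not tested.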
